A study of Mus musculus with 36 samples.

Results

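The genes described are 8 enzymes of haem synthesis, Alas2, Alas1, Alad, Uros, Urod, Cpox, Ppox and Fech, measured in mouse spleen. They were chosen by name, and every probe set that names only 1 of them was taken, which gave 19 probe sets for the 8 genes among 45037 probe sets and 18193 named genes on the array. Of the 19, 17 passed a filter on low signal and were tested. The others, a probe set each of Ppox (1441862_at) and Fech (1427696_at), had mean log2 signals of 6.34 and 4.99 under a limit of 6.49. Each gene is represented below by its brightest probe set unless another is named.

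Spleen RNA had been measured in 36 F2 mice at 4 months of age, 1 array per mouse, in 18 mice labelled arthritic (ART) and 18 labelled non-arthritic (NON). The series title says that the arthritic animals lacked the interleukin 1 receptor antagonist (gene Il1rn), a brake on interleukin 1 signalling. Whether the non-arthritic ones lacked it too is not stated. The study used the arrays to look for subgroups among the arthritic mice. The labels give no genotype, sex, severity or processing date per mouse. They do not say what cross the F2 generation came from. Signals are array intensities, given here as log2(intensity + 16), so that a difference of 1 is a doubling for bright probe sets, and levels of different probe sets are not compared because each probe set has its own response.

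Haem is made from glycine and succinyl-CoA in a chain of enzymes that starts and ends in the mitochondrion and passes through the cytosol. Developing red cells make most of the body's haem, for haemoglobin, and in mice the red pulp of the spleen is a site of red cell production in adult life. The first and rate-limiting step exists in a pair of forms: Alas2, X-linked and made in erythroid cells, and Alas1, made in all cells and shut down by haem itself. Alad joins the product of that step into porphobilinogen, Uros closes the ring of uroporphyrinogen III, Urod removes carboxyl groups from it, Cpox and Ppox oxidise it to protoporphyrin, and Fech inserts the iron. Other genes of the pathway are not analysed here.

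The stretch of 250 bases before the annotated start was read for 7 of the 8 genes from RefSeq (mouse build GRCm38.p6). Fech was left out of this reading, so the counts below do not cover it. Of these stretches 4 are shown because the genes behaved differently across mice: Alas2 and Urod followed the erythroid marker genes, Alas1 did not, and the probe sets of Cpox disagreed. Each runs 5′ to 3′ on the strand of the gene. Capitals mark a GATA motif (AGATAA, or the same letters with T in first place, G in last place or both, the letters bound by Gata1, a master regulator of red cell development) or a CACCC box (the letters bound by the erythroid factor Klf1 and its relatives), on either strand.
Alas2, chrX:150547167-150547416, plus strand: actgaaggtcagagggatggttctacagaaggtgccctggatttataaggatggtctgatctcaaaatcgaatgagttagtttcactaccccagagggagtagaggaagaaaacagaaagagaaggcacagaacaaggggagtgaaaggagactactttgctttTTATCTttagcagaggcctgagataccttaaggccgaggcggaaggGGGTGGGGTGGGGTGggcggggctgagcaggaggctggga
Alas1, chr9:106247731-106247980, minus strand: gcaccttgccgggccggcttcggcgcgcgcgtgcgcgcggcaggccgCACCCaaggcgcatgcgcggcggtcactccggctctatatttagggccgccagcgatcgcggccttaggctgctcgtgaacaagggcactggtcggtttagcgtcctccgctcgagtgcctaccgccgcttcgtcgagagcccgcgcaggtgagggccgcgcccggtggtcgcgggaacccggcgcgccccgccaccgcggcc
Urod, chr4:116994414-116994663, minus strand: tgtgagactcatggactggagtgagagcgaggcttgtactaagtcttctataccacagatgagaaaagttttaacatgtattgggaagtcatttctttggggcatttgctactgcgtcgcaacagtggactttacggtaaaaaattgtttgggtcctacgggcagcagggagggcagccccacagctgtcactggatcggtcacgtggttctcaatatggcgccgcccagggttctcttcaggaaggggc
Cpox, chr16:58669958-58670207, plus strand: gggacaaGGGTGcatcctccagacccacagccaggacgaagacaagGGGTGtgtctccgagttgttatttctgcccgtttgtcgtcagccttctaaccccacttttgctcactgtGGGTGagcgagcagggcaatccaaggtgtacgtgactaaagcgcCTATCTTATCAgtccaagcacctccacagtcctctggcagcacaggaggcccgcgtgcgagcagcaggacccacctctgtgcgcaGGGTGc
The Alas2 stretch held 1 GATA motif, from base -86 to -81 before the start, and 3 CACCC boxes between -40 and -26. The Cpox stretch held 2 GATA motifs that share a base and 4 CACCC boxes. The Alas1 stretch and the one before the other annotated start of Alas1 each held 0 GATA motifs and 1 CACCC box, and the Urod stretch held neither. Over the 10 stretches of the 7 genes, 3 held a GATA motif and 5 a CACCC box, beside 26.5% and 52.0% of 32851 stretches of the same length over the genome. At least 3 CACCC boxes stood in 6.92% of all stretches. A match of letters shows no binding, and binding was not measured.

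All 8 genes gave signal in every spleen, but they differed in how far mice lay apart. Alas2 intensity ran from 5874 to 29562, a 5.03-fold span over the 36 mice, and Cpox and Fech spanned 4.93-fold and 4.89-fold. The narrowest span was that of Alas1, 2.09-fold, whose SD over mice, 0.23, was larger than that of 16.5% of tested probe sets, while the SD of Alas2, 0.46, was larger than that of 68.6%. Other probe sets gave other spans. The dim second one of Alas1, 1455282_x_at, spanned 21.6-fold, with an SD larger than that of 96.6% of tested probe sets. Cpox 1422493_at spanned 10.2-fold. Arthritic mouse ART18 was the lowest of all 36 in 6 of the 8 genes, in all but Alas1 and Cpox. ART13 was the highest in 3 genes and non-arthritic NON7 in 2.

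**Figure D1:**
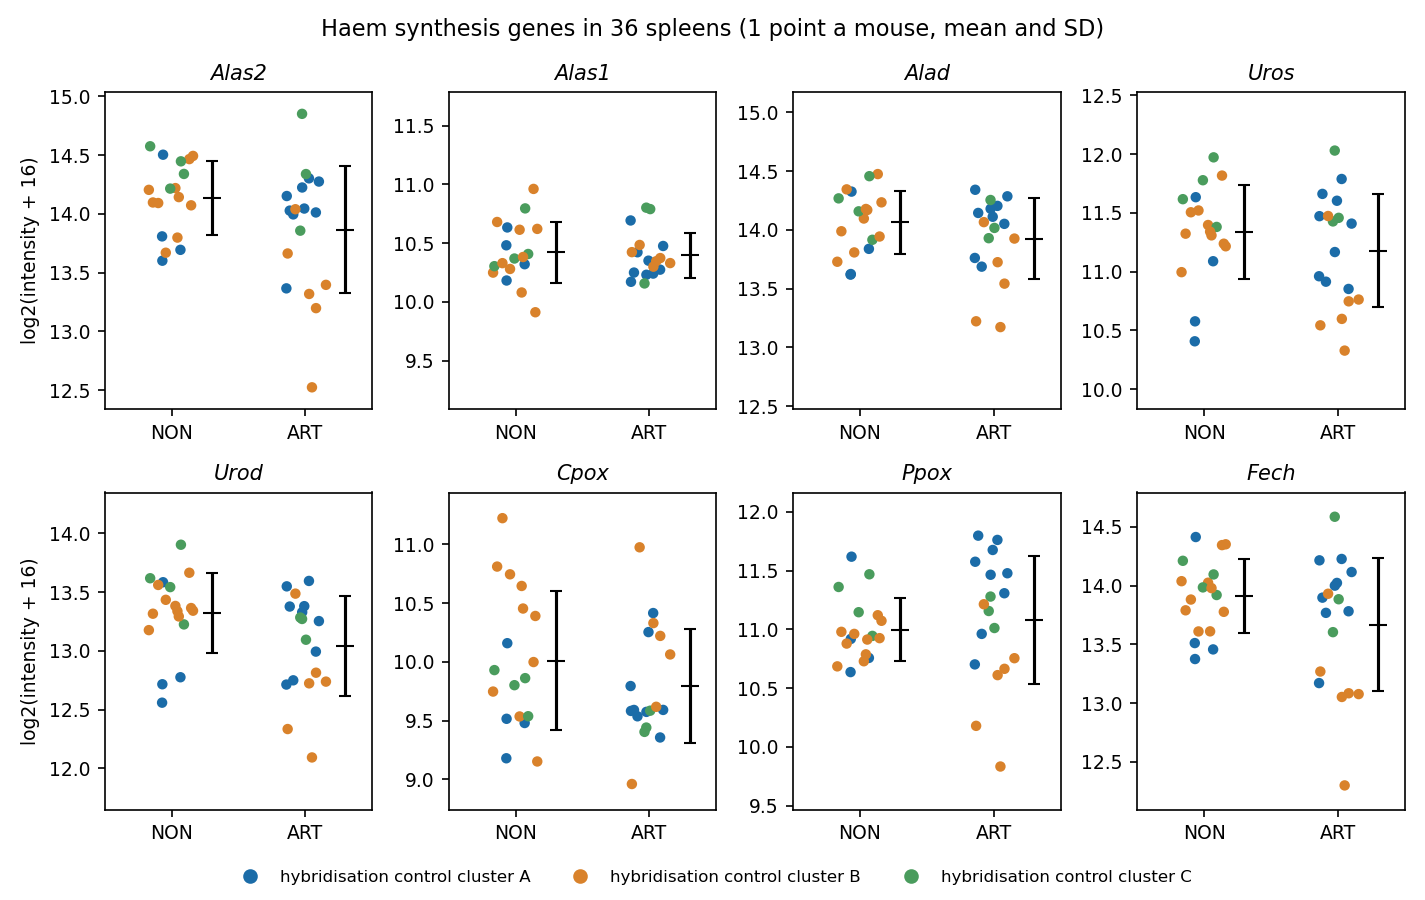
Signal of the 8 haem synthesis genes, log2(intensity + 16), in 18 non-arthritic (NON) and 18 arthritic (ART) spleens, 1 point a mouse, coloured by hybridisation control cluster, with the group mean and SD as a bar beside the points. Every panel spans the same log2 range, and the groups overlap in each. A low arthritic point recurs in 6 panels and is mouse ART18.

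Whether arthritic spleens differed from non-arthritic ones in these genes is the first comparison. None of the 17 tested probe sets passed the threshold (limma, Benjamini-Hochberg adjusted over 27022 probe sets, adjusted p under 0.05), beside 0.0481% of all tested probe sets that passed as higher and 0 that passed as lower in arthritic mice. At an unadjusted p under 0.05 there were 3 of the 17, 17.6% beside 15.7% of all tested probe sets, a share near the background in this fit. The values leaned to one side: 16 of 17 were lower in arthritic spleens, with a median of -0.20, beside 49.1% of all tested probe sets and a median of 0.003. The probe sets rise and fall together across mice, so the 16 are not separate observations.

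For Alas2, the erythroid first enzyme, signals ran from 12.52 through a median of 14.02 to 14.85 in the arthritic mice and from 13.60 through 14.17 to 14.58 in the others. The group means were 13.87 ± 0.54 for the arthritic and 14.14 ± 0.31 for the non-arthritic mice (SD, n = 18 each). The difference was -0.27 (limma SE 0.14, adjusted p = 0.336), with a 95% interval of -0.55 to 0.01, and the groups overlapped widely, 13 of 18 arthritic mice lying below the non-arthritic median. Alas1, the form made in all cells, ran from 10.16 through a median of 10.35 to 10.80 in the arthritic mice and from 9.91 through 10.37 to 10.96 in the others. Its difference was -0.03 (limma SE 0.08, adjusted p = 0.892), with an interval of -0.18 to 0.13.

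Of the enzymes that build and trim the ring, Alad, which makes porphobilinogen, ran from 13.17 through a median of 14.03 to 14.34 in the arthritic mice and from 13.62 through 14.13 to 14.48 in the others, with arthritic minus non-arthritic at -0.14 (limma SE 0.10, adjusted p = 0.486). Its second probe set, 1457306_at, differed by -0.40 (limma SE 0.17, adjusted p = 0.239), the largest difference and the lowest adjusted p of the 17. Uros, which closes the ring, ran from 10.33 through a median of 11.29 to 12.03 in the arthritic mice and from 10.41 through 11.36 to 11.97 in the others, and differed by -0.16 (limma SE 0.14, adjusted p = 0.582). Urod, the decarboxylase, had the largest difference of the representative probe sets, -0.28 (limma SE 0.12, adjusted p = 0.261), and ran from 12.09 through a median of 13.17 to 13.59 in the arthritic mice and from 12.56 through 13.35 to 13.90 in the others. In Urod 15 of 18 non-arthritic mice lay above the arthritic median. The second Urod probe set, 1417206_at, differed by -0.08 (SE 0.17), so the probe sets of Urod gave differences of unequal size.

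At the end of the chain, Cpox ran from 8.96 through a median of 9.59 to 10.98 in the arthritic mice and from 9.15 through 9.90 to 11.22 in the others, with arthritic minus non-arthritic at -0.22 (limma SE 0.17, adjusted p = 0.547). Ppox, which makes protoporphyrin, was the single representative probe set with a higher mean in arthritic mice, by 0.08 (limma SE 0.14, adjusted p = 0.795), and it ran from 9.83 through a median of 11.18 to 11.80 in the arthritic mice and from 10.64 through 10.93 to 11.62 in the others. Its other tested probe set, 1448065_at, differed by -0.30 (SE 0.13), the opposite sign. Fech, which inserts iron, ran from 12.30 through a median of 13.83 to 14.59 in the arthritic mice and from 13.38 through 13.95 to 14.41 in the others, and differed by -0.24 (limma SE 0.14, adjusted p = 0.404). Every one of the 8 genes overlapped between the groups. In bulk tissue, fewer cells of a type and less RNA per cell cannot be told apart.

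Before the other results, a technical structure in the arrays has to be given. The 18 probe sets of the hybridisation controls, bacterial and phage transcripts added to each sample before hybridisation, split the arrays into 3 clusters, here A (9 arthritic and 4 non-arthritic arrays), B (6 and 10) and C (3 and 4). Cluster A held the arthritic mice numbered 1 to 9. The labels name no batch, so the clusters are defined from these controls alone. They also differed in a measure of RNA condition, the log2 ratio of 3′ to 5′ signal of Gapdh. It averaged -0.42 ± 0.11 in A, -0.0001 ± 0.13 in B and -0.14 ± 0.10 in C (SD, n = 13, 16 and 7). The part of that ratio in the within-cluster differences was not tested. With group as a term, 48.1% of all tested probe sets and 9 of the 17 haem synthesis probe sets differed between clusters (limma F test, adjusted p under 0.05), a share near the background. In 3 arrays (ART8, NON5 and NON6) pancreas genes were high, and without them the counts for group, pairs and slopes were again 0 of 17, 16 of 28 and 13 of 17. Each array had a median intensity between 110.6 and 183.2. B cell markers (7 of 8 genes), red pulp macrophage markers (8 of 8) and T cell markers (6 of 8) passed the filter on low signal. So did 12427 of the 18193 named genes, so these counts alone do not identify the tissue. Il1rn, the gene of the missing antagonist, was near the limit of the filter, and its 1 tested probe set averaged 6.48 ± 0.65 in the arthritic and 6.52 ± 0.55 in the other mice (SD, n = 18 each), -0.04 apart (limma SE 0.20, adjusted p = 0.941). Whether that probe set lies in a deleted stretch is not known here.

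Within the clusters, arthritic and non-arthritic spleens stood in different order for most of these genes. In cluster B, Alas2 differed by -0.77 on the log2 scale (arthritic minus non-arthritic), against 0.14 in cluster A and -0.05 in cluster C. Fech differed by 0.22, -0.82 and -0.03 in clusters A, B and C. Urod differed by 0.31, -0.69 and -0.36 in the same order. Uros, Alad and Ppox likewise had a positive difference in cluster A (0.39, 0.23 and 0.43) and a negative one in cluster B (-0.62, -0.49 and -0.36), as did Cpox (0.16 and -0.24). The second probe sets of Alad and Uros were at -0.04 and -0.13 in cluster A and the other Cpox probe sets at -0.17 and -0.06, without that turn of sign. Alas1 lay between -0.06 and 0.11 in all 3.

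The 6 arthritic spleens of cluster B had Alas2 signals of 12.52, 13.20, 13.32, 13.40, 13.66 and 14.04, and the 10 non-arthritic ones ran from 13.67 to 14.49. All but 1 of the arthritic spleens, ART17, thus lay below every non-arthritic one. Fech in the same 6 spleens was 12.30, 13.05, 13.08, 13.08, 13.27 and 13.93, beside 13.61 to 14.35 in the non-arthritic ones, with ART17 again the exception. A score of erythroid marker genes, described with the slopes, averaged -0.54 in these 6 spleens and 0.14 in the 10, and 0.13 and -0.23 in the 9 arthritic and 4 non-arthritic spleens of cluster A, so it moved with the genes. Markers of other cells moved too in cluster B. All 9 tested cell cycle genes were lower in arthritic spleens there (3 passed the threshold), as were all 8 red pulp macrophage genes (1 passed) and all 8 neutrophil genes (0 passed), and all 7 B cell genes were higher (1 passed). The B cell score ran from -0.05 to 0.54 in the 6 arthritic and from -0.33 to 0.25 in the 10 non-arthritic spleens. The part of these markers in the within-cluster differences was not tested.

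Within cluster B, 6 of the 17 probe sets passed the threshold as lower in arthritic spleens, those of Alas2, Uros and Urod and all 3 tested probe sets of Fech, beside 1.45% of all tested probe sets that passed as lower and 1.28% as higher. The count fell to 0 when arthritic mouse ART14, ART15, ART16 or ART18 was left out, and rose to 11 without ART17. The calls over the whole array moved the same way, with 392 of 27022 probe sets called lower in cluster B, 1, 2, 1 and 0 in the fits without those 4 mice, and 1117 without ART17. Within clusters A and C it was 0. The test of the difference itself, an interaction of group and cluster, called 0 of the 17 probe sets beside 0.037% of all tested ones, with a lowest adjusted p of 0.0818 for Urod. At an unadjusted p under 0.05 it held 10 of the 17, 58.8% beside 16.7% of all tested probe sets. With the arrays in 2 clusters in place of 3 it held 0 of the 17, and 650 of 27022 probe sets, with a lowest adjusted p of 1.00 among the 17, so the share rests on the number of clusters. Leaving out ART1, ART2, ART17 or NON6 brought the adjusted count to 7, 1, 8 and 9, while the count over all probe sets went from 10 to 681, 188, 871 and 910.

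**Figure D2:**
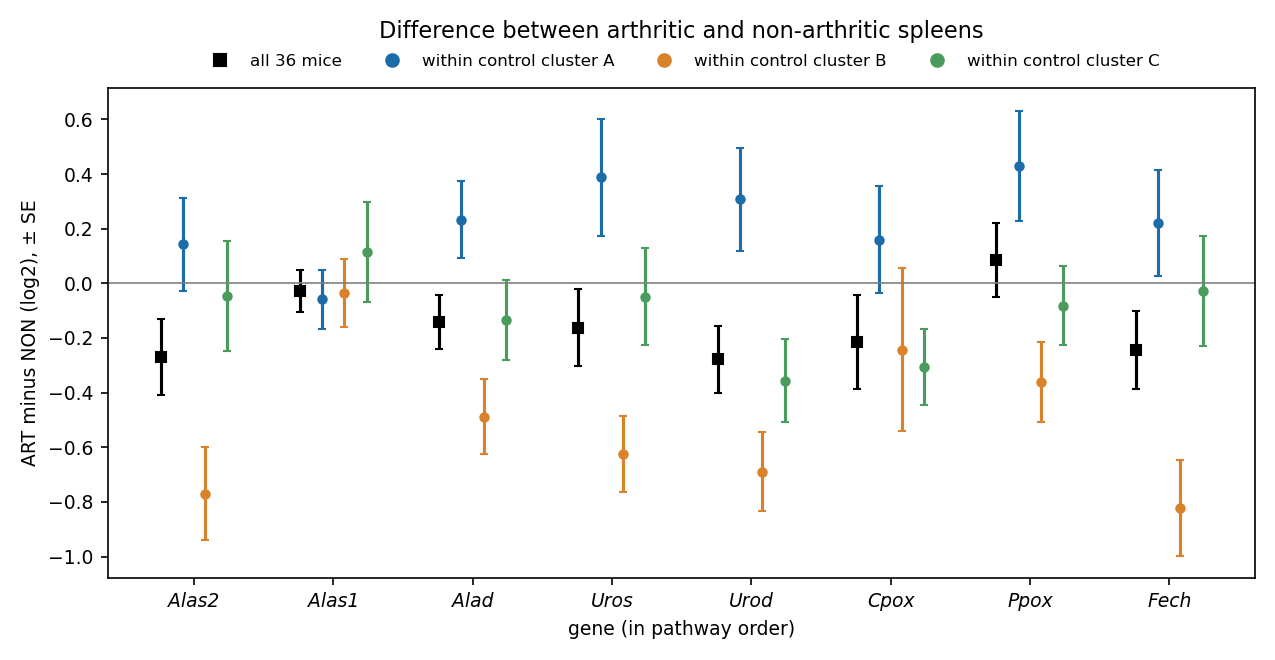
Mean difference between arthritic and non-arthritic spleens (log2, bars are ± SE) for the 8 genes over all 36 mice (black squares) and within hybridisation control clusters A (9 and 4 mice), B (6 and 10) and C (3 and 4). For Alas2, Fech, Urod, Uros, Alad, Ppox and Cpox the cluster A value lies above 0 and the cluster B value below it, and the 3 values of Alas1 lie near 0.

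Whether the steps of the pathway moved together across mice is the second comparison. Of the 28 pairs of genes, 16 were positively correlated over the 36 mice and 0 negatively (permutation test, adjusted over the 28 pairs, adjusted p under 0.05). All 15 pairs among Alas2, Alad, Uros, Urod, Ppox and Fech passed, with Pearson r from 0.68 to 0.97 and Spearman rho from 0.62 to 0.93. Each of the 15 had the smallest p the permutations can give or the next above it (adjusted p 2e-05 to 3.73e-05). Without the 2 mice farthest from the median the lowest r of the 15 was 0.55. Within clusters A and B the lowest was 0.66 and 0.76, but in cluster C, of 7 mice, 0.14, for Alas2 and Urod.

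By the brightest probe sets, the closest pair was the erythroid first enzyme and the last enzyme. Alas2 and Fech had r = 0.97 (rho = 0.93, permutation p = 1e-05, the smallest possible, adjusted p = 2e-05), with r = 0.97, 0.99 and 0.96 within clusters A, B and C, and 0.95 without the 2 farthest mice. The other tested Fech probe sets had lower r with Alas2, 0.80 for 1418698_a_at and 0.66 for 1449181_at. With the mean of all probe sets of a gene, the highest r of any pair was 0.89. Uros and Urod, neighbours in the chain, had r = 0.90 (rho = 0.86), and Alad and Urod r = 0.89 (rho = 0.82), both with an adjusted p of 2e-05. For comparison, r with Alas2 exceeded 0.8 in 0.475% and 0.5 in 8.33% of 12419 other genes, so an r over 0.8 with Alas2 was uncommon but not limited to the pathway. Of Alad, Uros, Urod, Ppox and Fech, only Fech exceeded 0.8 with Alas2, and the others lay from 0.68 (Ppox) to 0.78 (Alad). No such background was computed for pairs without Alas2.

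Over all 36 mice Alas1 stood outside. None of its 7 pairs passed, with r from -0.13 (Cpox) to 0.34 (Alas2, rho = 0.36, adjusted p = 0.068). Within non-arthritic mice, r of Alas1 with Alas2, Alad, Uros, Urod, Ppox and Fech was 0.55, 0.51, 0.40, 0.36, 0.41 and 0.57. In arthritic mice the same pairs stood at 0.23, -0.03, 0.18, -0.15, -0.20 and 0.12. With Cpox it was -0.21 and -0.06. Whether the groups differed in these r was not tested. The pair with Alas2 passed when ART1, ART18 or NON16 was left out, with r of 0.41, 0.38 and 0.38. Within clusters A, B and C it was -0.13, 0.35 and 0.63. The second probe set of Alas1, 1455282_x_at, dim with a mean of 7.12, had r = 0.00 with the first, so what is said of Alas1 rests on 1424126_at.

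Cpox, by its brightest probe set, passed with Urod alone (r = 0.40, rho = 0.45, adjusted p = 0.0256), and r fell to 0.33 (adjusted p = 0.0825) without ART10 and to 0.36 (adjusted p = 0.0535) without NON2. After group and cluster were taken out, Cpox also correlated with Alad (r = 0.43), Uros (0.52) and Ppox (0.49). With the mean of all probe sets of a gene, its r was 0.49 with Alas2, 0.56 with Alad, 0.64 with Uros and 0.36 with Fech, all past the threshold. Its correlations thus depend on the probe set and on the clusters.

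**Figure D3:**
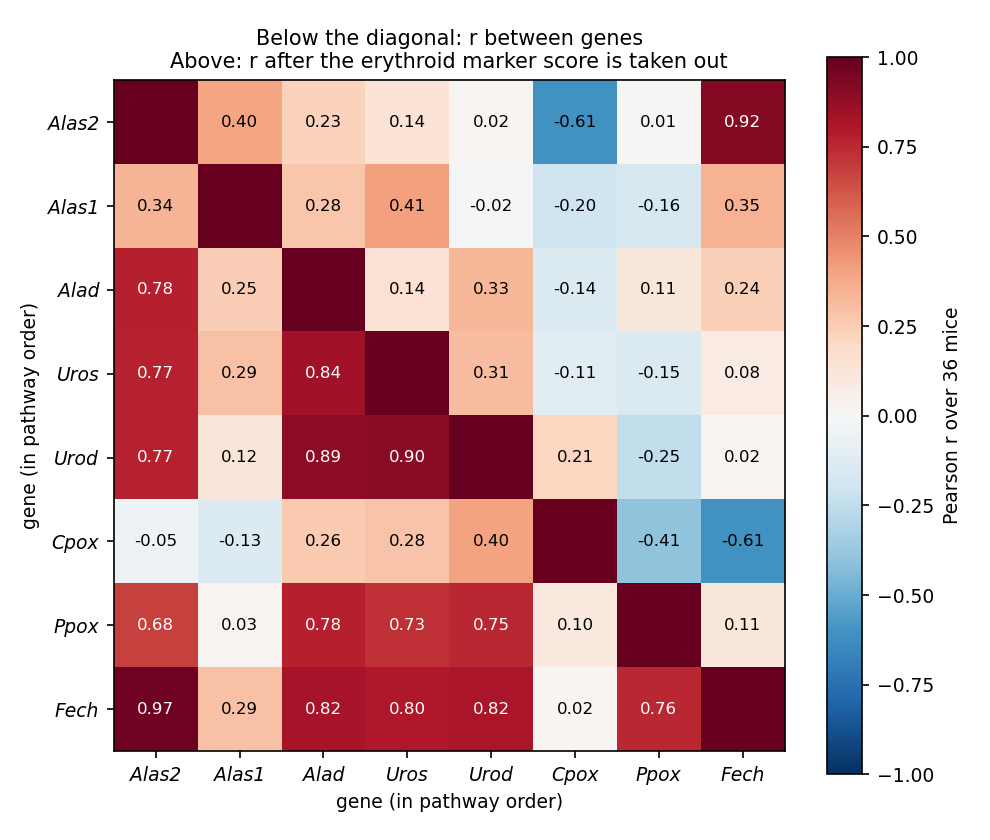
Pearson r between the 8 genes over 36 mice, in pathway order: below the diagonal as measured, above it after the erythroid marker score was taken out of each gene. Below the diagonal a block of 6 genes is red with r of 0.68 or more, while the row and column of Alas1 and of Cpox are pale. Above it the block fades except for Alas2 with Fech (0.92), and Cpox turns negative with both (-0.61). Each gene is shown by its brightest probe set, and other probe sets were not put through this step.

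Haem synthesis was then set against the amount of erythroid RNA. An erythroid marker score was the mean of gene-centred log2 signals of 15 tested genes of 17 listed, among them the band 3 anion exchanger Slc4a1, the Rh proteins Rhag and Rhd and the factors Gata1 and Klf1, with no haem synthesis gene among them. Of the 17 haem synthesis probe sets, 13 rose with the score and 0 fell (limma slope with group as a term, adjusted p under 0.05), beside 9.56% of all tested probe sets that rose and 10.9% that fell. The median slope was 0.85 per unit of the score, beside -0.06 over all tested probe sets. The 13 belong to all the genes but Alas1.

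Of the 8 genes Urod had the highest r, with a slope of 0.86 (SE 0.05, limma adjusted p = 1.16e-15) and r = 0.95 (rho = 0.87, permutation p = 1e-05, the smallest possible, adjusted over 88 relations 6.29e-05). Uros rose by 0.93 (SE 0.08, limma adjusted p = 4.63e-12) and Alad by 0.64 (SE 0.06, limma adjusted p = 1.41e-10). Fech and Ppox rose by 0.91 (SE 0.09) and 0.88 (SE 0.08) per unit. Alas2 rose by 0.82 (SE 0.10, limma adjusted p = 1.03e-07), with r = 0.81 (rho = 0.66) overall and 0.83, 0.84 and 0.31 within clusters A, B and C. ART18 had both the lowest score, -1.41, and the lowest Alas2, and without it the slope of Alas2 was 0.74 (limma adjusted p = 2.99e-05).

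The brightest Cpox probe set had a slope of 0.42 (SE 0.20, limma adjusted p = 0.129), and 0.66 (adjusted p = 0.00332) once the clusters were a term. Alas1 had a slope of 0.07 (SE 0.09, limma adjusted p = 0.661) and r = 0.14. Set directly against Alas2, the slope of Alas1 was lower by 0.75 (95% interval of the difference -0.98 to -0.53, permutation p = 1e-05, the smallest possible, adjusted over 7 comparisons 7e-05). The slopes of the other 6 genes did not pass against Alas2. The intervals of the difference ran from -0.41 to 0.04 for Alad, from -0.99 to 0.19 for Cpox, from -0.14 to 0.36 for Uros and from 0.004 to 0.18 for Fech (permutation p = 0.0392, adjusted p = 0.137). Those of Urod and Ppox ran from -0.21 to 0.29 and from -0.19 to 0.31.

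Once the score was taken out of each gene, 3 of the 28 pairs passed. Alas2 and Fech had r = 0.92 (permutation p = 1e-05, adjusted p = 0.00028), and Cpox was negatively correlated with each of them (r = -0.61 for Alas2 and -0.61 for Fech, adjusted p = 0.0014 for both). The other 14 pairs among the 6 genes lay between -0.25 (Urod with Ppox) and 0.33 (Alad with Urod). These values rest on the brightest probe set of each gene, and other probe sets were not put through this step. Before the score was taken out, Cpox 1422493_at and 1440747_at had r = 0.50 and 0.52 with Alas2, against -0.05 for the brightest. Fech 1418698_a_at and 1449181_at had 0.80 and 0.66 with Alas2, against 0.97 for the brightest. The negative r of Cpox and the high r of Fech are thus not shown for the genes as such. Group differences were also smaller with the score as a covariate, -0.13 for Alas2, -0.09 for Fech, -0.14 for Urod and -0.01 for Uros, while Ppox stood at 0.23, and 0 of the 17 passed.

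Other scores moved with these genes too. The cell cycle score had r = 0.94 with Urod, 0.92 with Uros and 0.73 with Alas2. Its 9 tested genes all rose with the erythroid score, beside 9.56% of all tested probe sets. The B cell score had r = -0.73 with Urod and -0.57 with Alas2. Ppox had r = 0.64 with the red pulp macrophage score (permutation test, adjusted p = 0.000147), and 0.45, 0.59 and -0.57 within clusters A, B and C. With the T cell score Ppox had r = -0.58 (permutation test, adjusted p = 0.000712). Since an array signal is a share of the total RNA, such scores are tied to each other, and the part of each in the relations above was not tested beyond the erythroid score.

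Alas1 followed neutrophil marker genes more closely than erythroid ones. Its r with a neutrophil marker score of 8 genes was 0.74 (rho = 0.69, permutation p = 2e-05, adjusted over 88 relations 0.000104), with 0.58, 0.77 and 0.85 within clusters A, B and C, and 0.76 without the 2 farthest mice. The 8 genes, among them the granule proteins Ngp, Ltf and Mpo, had r of 0.67 to 0.75 with Alas1 each. All 8 also rose with the erythroid score (limma adjusted p under 0.05), beside 9.56% of all tested probe sets. Their median slope was 1.18, so the scores are not separate. The neutrophil score had r of 0.51 to 0.64 with Alas2, Alad, Uros, Urod and Fech, 0.36 with Ppox and 0.19 with Cpox. The slope of Alas1 on that score was 0.21 (SE 0.04, limma adjusted p = 0.000185), and 0.29 (SE 0.04, adjusted p = 5.94e-06) with the erythroid score in the same fit. Without the erythroid score 6 of the 17 haem synthesis probe sets rose with the neutrophil score, beside 5.41% of all tested ones, and 0 fell, beside 5.33%. With the erythroid score Alas1 alone rose, beside 0.77%, and Fech probe set 1449181_at fell (slope -0.27, limma adjusted p = 0.0243), beside 0.318%, while the brightest Fech probe set had a slope of 0.05 (adjusted p = 0.763). Alas1 also correlated with the megakaryocyte score (r = 0.52, rho = 0.56, permutation p = 0.00132, adjusted p = 0.0043), with r of 0.31, 0.56 and 0.84 in the clusters.

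**Figure D4:**
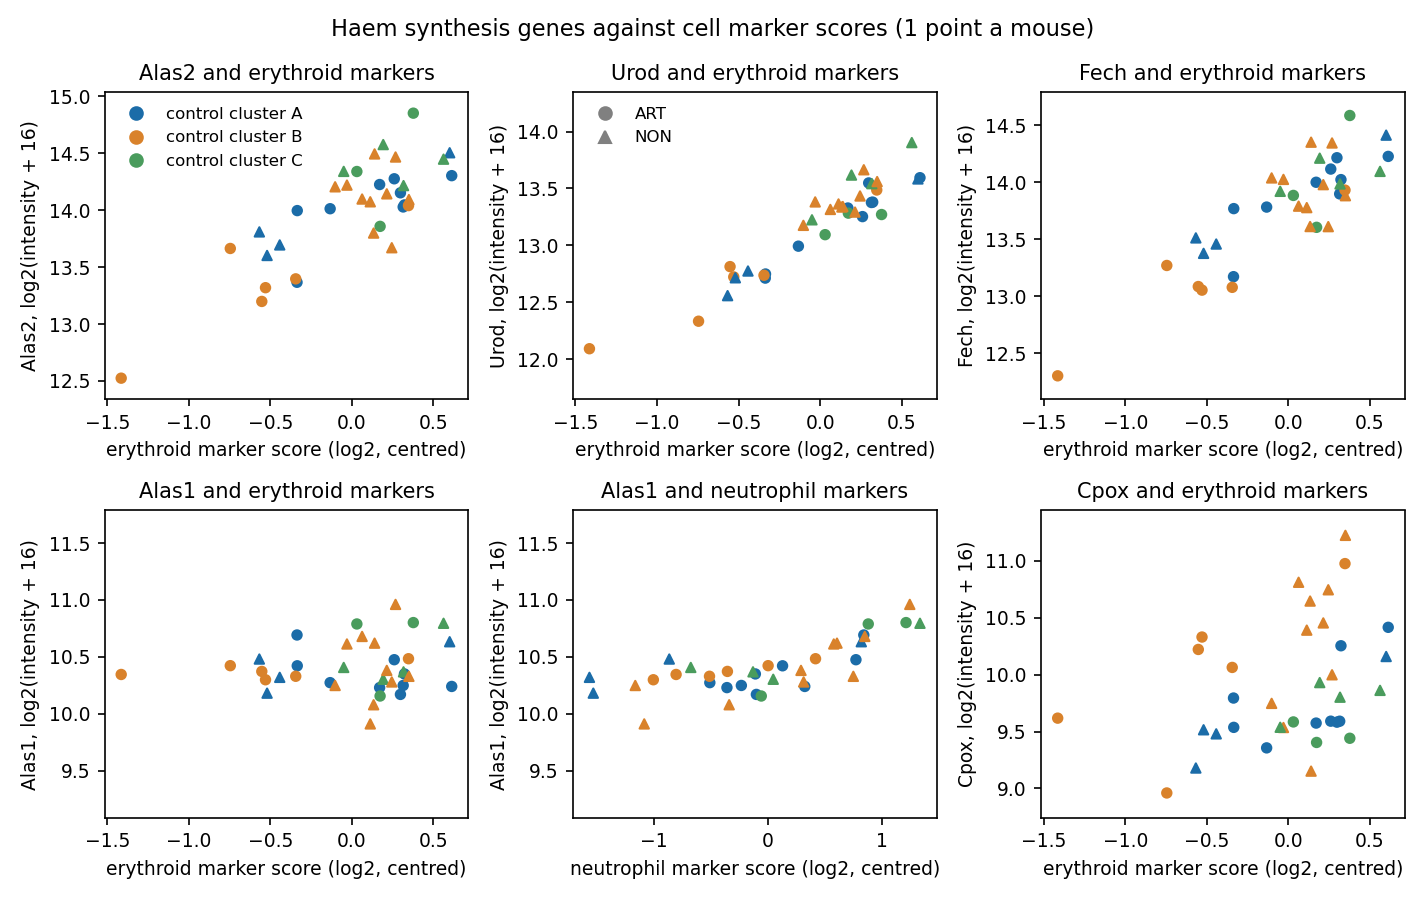
Signal of Alas2, Urod, Fech, Alas1 and Cpox, log2(intensity + 16), against marker scores (mean of gene-centred log2 signals), 1 point a mouse, circles for ART and triangles for NON, coloured by hybridisation control cluster. Alas2, Urod and Fech climb along the erythroid score, Alas1 is flat along it (r = 0.14) but climbs along the neutrophil score (r = 0.74), and Cpox is scattered (r = 0.36). ART18 is the point farthest left on the erythroid axis.

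The genes whose pattern over the 36 mice was most like that of Alas2, by Pearson r over 12419 genes outside the pathway, were Gda (0.92), a guanine deaminase, Isca1 (0.92), an assembly factor of iron-sulphur clusters, Sh3glb1 (0.91), a membrane-bending protein, Cdr2 (0.91), the adiponectin receptor Adipor1 (0.90), Fam220a (0.90), the ring finger protein Rnf10 (0.90) and Mpp1 (0.89), a protein of the red cell membrane skeleton. The brightest Fech probe set, at 0.97, was closer than any of them, but 1418698_a_at (0.80) and 1449181_at (0.66) were less close than all of them. The lowest r belonged to Tmem184c (-0.87), the peptidase Dpp4 (-0.85) and N4bp2l1 (-0.84). Closest to Alas1 were Lta4h (0.82), which makes leukotriene B4, Anxa3 (0.81), an annexin of neutrophil granules, Prom1 (0.80), Olfml2b (0.78) and the myeloid receptor Trem3 (0.78). Only 3 genes exceeded 0.8 with Alas1, against 59 with Alas2.

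Genes that supply the pathway with iron or carry its intermediates moved partly with it. Of 18 tested genes of 21 listed, 12 rose with the erythroid score and 1 fell, with a median slope of 0.54. Over all tested probe sets 9.56% rose and 10.9% fell, so the 1 that fell is no more than the background. The steepest were the transferrin receptor family member Tfr2 (1.02), the mitochondrial transporters Abcb10 (1.00) and Abcb6 (0.77) and the iron reductase Steap3 (0.79). The 1 that fell was Slc25a28 (-0.23, SE 0.08, limma adjusted p = 0.0359), the mitoferrin of non-erythroid cells, whereas Slc25a37, the erythroid mitoferrin, rose by 0.49. Ireb2, which binds iron-responsive elements, had a slope of -0.09 (adjusted p = 0.435).

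Between the groups 0 of the 18 passed, and 15 were lower in arthritic mice, beside 49.1% of all tested probe sets. The median was -0.09, beside 0.003 over all tested probe sets. Since 12 of the 18 rose with the erythroid score, the 15 are not separate observations. The 4 with the smallest unadjusted p were Slc25a37 (-0.23), the glutathione carrier Slc25a39 (-0.21), Abcb10 (-0.33) and the transferrin receptor Tfrc (-0.18). Slc25a39 also had r = 0.86 with Alas2.

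Among genes that use or break down haem, 6 of 15 tested (20 listed) rose with the erythroid score and 2 fell. The shares over all tested probe sets were 9.56% and 10.9%, and the median slope of the 15 was 0.22. Those that rose most were myeloperoxidase Mpo (1.29), which is also a neutrophil marker, biliverdin reductase Blvrb (0.88), the haem-regulated kinase Eif2ak1 (0.87) and the globin Hbb-b2 (0.70). Cyp51, a cytochrome P450 of sterol synthesis, fell by 0.27 per unit, and the haem exporter Flvcr1 had a slope of -0.18 (adjusted p = 0.239). Between the groups 0 passed. Cybb, the haem-bearing subunit of the phagocyte oxidase, was higher in arthritic mice by 0.41 (limma adjusted p = 0.0931), and Hbb-b2 differed by -0.41 (adjusted p = 0.135).

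Of 6 tested genes known as regulators of Alas1 (9 listed), 3 fell with the erythroid score and 0 rose, with a median slope of -0.35. Beside them, 10.9% of all tested probe sets fell and 9.56% rose. The 3 were the immediate early factor Egr1 (-0.54), Foxo1 (-0.51) and the coactivator Ppargc1b (-0.20). Their r with Alas1 itself ran from -0.42 for the circadian repressor Nr1d2 to 0.21 for Egr1 over the list. Between the groups 0 of the 6 passed.

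The 3 probe sets of Cpox, the enzyme that oxidises coproporphyrinogen, did not report the same pattern. The brightest, 1422492_at, had r = -0.04 with 1422493_at and -0.10 with 1440747_at, while those other 2 had r = 0.77 with each other. In the 7 arrays of cluster C, 1422493_at read from 10.15 to 11.05, and in the other 29 from 7.80 to 9.54, so the ranges did not touch. The excess in cluster C was 1.74 on the log2 scale, 1.86 among arthritic and 1.60 among non-arthritic mice, and its F test over clusters had a limma adjusted p of 4.02e-10, the lowest of the 17 probe sets.

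Probe set 1440747_at read from 7.69 to 9.16 in cluster C and up to 7.84 elsewhere, where 2 of 29 arrays reached into the cluster C range, an excess of 1.15. For 1422492_at the difference was -0.31, the opposite sign. The remaining genes shifted less: cluster C minus the rest was 0.46 for Alas2, 0.51 for Uros, 0.31 for Fech and 0.14 for Alas1. Within clusters A, B and C, r of 1422493_at with the erythroid score was 0.12, 0.63 and 0.94. Because each probe set reads its own stretch of the transcript, what sets the Cpox probe sets apart in cluster C cannot be told from these arrays, and a level of Cpox is not given.

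**Figure D5:**
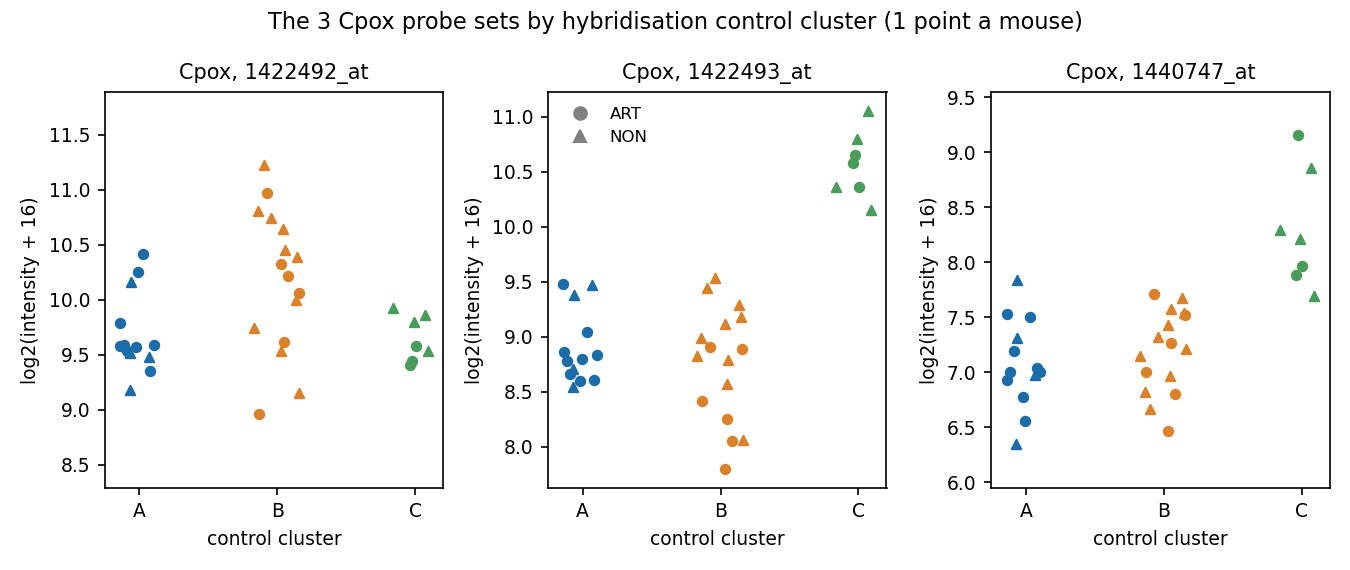
Signal of the 3 Cpox probe sets, log2(intensity + 16), by hybridisation control cluster, 1 point a mouse, circles for ART and triangles for NON. In the middle panel the 7 arrays of cluster C (10.15 to 11.05) sit above all 29 others (at most 9.54), in the right panel nearly so, and in the left panel they do not.

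Among the other genes, the 2 probe sets of Alas1 had r = 0.00 with each other, and the tested probe sets of the rest followed each other more closely than that. Those of Fech that were tested had r of 0.75 to 0.89 with each other, the pair of Urod 0.88, the pair of Alad 0.78 and the pair of Uros 0.61, while the 2 tested probe sets of Ppox had 0.38. The brightest Ppox probe set moved with a measure of RNA condition, the ratio of 3′ to 5′ signal of Gapdh (r = -0.39, rho = -0.37, permutation p = 0.0172, adjusted over 88 relations 0.0458). Within the clusters that r was 0.06, 0.14 and 0.48, so it did not hold within them. The other tested Ppox probe set had r = 0.36 with that ratio, of opposite sign, and Fech 1449181_at and Alas1 1455282_x_at had -0.34 and 0.33. Other genes moved with the Gapdh ratio within the groups. For Alas2, Alad, Uros, Urod and Fech, r was 0.66, 0.64, 0.50, 0.64 and 0.72 in non-arthritic mice. In arthritic mice it was -0.39, -0.45, -0.36, -0.45 and -0.48, and over all mice between -0.02 and 0.09. In the same order of groups Ppox had 0.14 and -0.60, Alas1 0.20 and 0.27, and Cpox 0.20 and 0.25. The brightest Cpox probe set moved with the same ratio of actin (r = 0.48, rho = 0.46, permutation p = 0.00322, adjusted p = 0.00977), with 0.19, 0.38 and 0.55 within clusters. The part of these ratios in the results above was not tested further than in the alternative fits.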

How the data were processed

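Biotin-labelled spleen RNA of each of 36 mice was put on 1 Affymetrix mouse array. The deposited values are linear MAS5 intensities, per the submitters' processing notes, and each array's trimmed mean over 45101 probe sets (2% trimmed) lay at 500.0. The version, its settings and further steps are not given in the sources used here. Intensities were used as log2(intensity + 16) with no further normalization. The 64 control probe sets were left out, and 27022 probe sets with a mean above the 40th percentile (log2 6.49) were tested. Platform annotation gave 1 symbol to 34945 probe sets, several to 932 and none to 9160, and a probe set with several was not named.

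Groups were taken from the sample titles. Group differences, slopes on marker scores (group as a term) and the interaction of group and cluster were fitted with limma 3.58.1 (R 4.3.3; lmFit, eBayes with trend) and adjusted by Benjamini-Hochberg over all tested probe sets at 0.05. Correlations used 2-sided permutation tests with 100000 resamples (Python 3.11.15, scipy 1.17.1), adjusted within each family. Hybridisation control clusters came from Ward clustering of 18 control probe sets into 3. The fits were tested on simulated data: with 100 of 27022 probe sets changed by 1 on the log2 scale, 96 were recovered for the group difference, 93 for the slope and 50 for the interaction, and at 0.5 there were 61, 58 and 12. False calls numbered 7 for the group difference, 11 for the slope and 8 for the interaction. With 36 arrays, precision is set by their number.

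The genes and marker lists were chosen with earlier results of these data known, and the neutrophil slopes, the F test of the clusters and the within-cluster values without single arrays were added after the data were seen. Outside the pathway, named genes are the 8 most and 3 least correlated with Alas2, the 5 most correlated with Alas1, and, of each list, those with the 4 smallest unadjusted p or the 4 highest and 2 lowest slopes or correlations. Promoter stretches came from RefSeq (GRCm38.p6). Replicate numbers did not pair the mice.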

Additional observations from a re-analysis of the deposited data

How the results depend on the processing

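In all settings and in all 36 fits without 1 mouse, 0 of the 17 haem synthesis probe sets passed between the groups. The count at an unadjusted p under 0.05 was less stable. It was 6 of 17 (3221 of 27022 probe sets) with the cluster as a block and 5 (5387) with the replicate block. By the Wilcoxon test it was 2 (4155), against 3 (4250) in the main fit. The number of pairs past the threshold was 15 to 17 of 28 without single mice and 3 after the erythroid score, and the number of slopes 13 to 14 of 17 without single mice. The interaction of group and cluster called 0 to 9 of 17 without single mice and 0 with 2 clusters, where 0 of 17 also stood at an unadjusted p under 0.05 (10 with 3 clusters), and with average linkage it could not be fitted because a cluster held no mouse of a group. Over all tested probe sets, 13 passed between the groups, against 1 with quantile normalization, 0 with no filter, 0 with a filter at the 20th percentile, 0 with no trend, 0 with the cluster as a block, 49 with the erythroid score in the fit, 2 with the Gapdh 3′ to 5′ ratio in it, 271 without the 3 pancreas-high arrays, and 0 to 391 without single mice (391 without NON2). The cause was not tested. With the replicate number as a block the count was 369, and among the haem synthesis genes 0 group differences, 10 slopes and 19 pairs passed. Same-numbered mice share only a number: their deviations had a median r of 0.15 (18 pairs, -0.23 to 0.47), and 2 of 18 correlated best with their own number.

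Sign changes were limited to small values. The group difference turned for Alas1 1424126_at (0.0060 with the Gapdh ratio; -0.057 to 0.0045 without single mice), Alas1 1455282_x_at (0.17 with the cluster block, 0.13 with the Gapdh ratio, 0.034 without the pancreas-high arrays; -0.17 to 0.051 without single mice), Urod 1417206_at (0.12 with the erythroid score; -0.13 to 0.014 without single mice) and Ppox 1416618_at (-0.037 with the cluster block, -0.020 with the Gapdh ratio). The slope turned for Alas1 1424126_at (-0.076 with the replicate block) and Alas1 1455282_x_at (0.072 without the pancreas-high arrays, 0.089 with the cluster block, 0.20 on Slc4a1 alone; -0.34 to 0.16 without single mice). The slope of Uros 1440535_at did not pass without ART18 (0.43, limma adjusted p = 0.0527). Mice and not probe sets are the replicates, and clusters A and C hold few mice of a group, so within-cluster values there are imprecise.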
